A study of Mus musculus with 4 samples.

Results

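The 50 genes described here act in DNA replication and mitosis. They were named from their known roles, though with earlier results of these data known. All 50 were found by symbol among the 27597 genes listed in at least 1 of 3 deposited RNA-seq tables. The cells were mouse embryonic fibroblasts of strain OGXICR, grown from the skin of D13.5 embryos after the epidermis was taken off, and kept in medium with serum. All 4 groups received doxycycline-inducible lentivirus: an empty vector in the control, the factors SOX2, KLF4 and c-MYC in SKM, these together with OCT4 in OSKM, or together with GATA3 in G3SKM. These are factors used to reprogram fibroblasts toward pluripotency, and the series was part of a search for further ones. The labels give neither the time in doxycycline nor the share of cells infected. A gene had a single value in each group, made from 2 replicates. The spread between replicates is therefore unknown, no test was possible, and every difference below is one between single values.

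A dividing cell copies its DNA once and then parts the copies. In G1, CDC6 and CDT1 load the MCM2 to MCM7 helicase ring at origins. In S phase, CDC45 and the GINS complex turn the ring on, polymerases copy the strands behind it, PCNA holds the polymerases to the template, and ribonucleotide reductase supplies the building blocks. In mitosis, cyclin B with CDK1, the Aurora and Polo-like kinases, kinesin motors and the kinetochore move the chromosomes, and the checkpoint kinases hold back CDC20 until all are attached. E2F proteins, with FOXM1 and B-MYB (the product of Mybl2), switch these genes on in waves, and in fibroblasts they follow growth signals from serum.

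The bases just upstream of some of these genes are shown because the genes are known to share a few promoter motifs. RefSeq promoters (build GRCm38.p6) matched 39 of the 50 genes, with 42 start sites. For 33 of the 42, the last 25 bases of the promoter record, past the start, lay in an annotated transcript of the gene. The others were kept, so their starts are less sure. In the 250 bases before each start, on either strand, an E2F motif (TTTCCCGC, TTTGGCGC, TTTGCCGC or TTTCGCGC, which may overlap one another) was present in 8 of 42 promoters (19.0%), against 1.86% of all 32851 promoters of the same length. The CCAAT motif was present in 32 (76.2%), against 33.8% of all. The CHR motif of mitotic genes (TTTGAA) was present in 9 (21.4%), against 16.0% of all. The E-box CACGTG, which MYC can bind, was present in 2 (4.76%), against 6.02% of all. No match of 1 motif overlapped a match of another in these promoters. The last 120 bases before the start are printed 5′ to 3′ on the gene's strand, with every match in capitals on whichever strand it lies. Mcm7, Mcm10, Cdc20 and Cenpa rose in OSKM against empty vector, Top2a and Ccnb1 rose in OSKM against SKM, Mcm6 carried 3 E2F matches, and Cdk4 carried 3 E-boxes and passed the rule in no comparison. The windows lie at chr5:138171884-138172003 (Mcm7, minus strand, the first of 2 starts), chr2:5012792-5012911 (Mcm10, minus), chr1:128359706-128359825 (Mcm6, minus), chr4:118437344-118437463 (Cdc20, minus), chr5:30666766-30666885 (Cenpa, plus), chr11:99024190-99024309 (Top2a, minus), chr13:100786487-100786606 (Ccnb1, minus) and chr10:127063415-127063534 (Cdk4, plus).
Mcm7: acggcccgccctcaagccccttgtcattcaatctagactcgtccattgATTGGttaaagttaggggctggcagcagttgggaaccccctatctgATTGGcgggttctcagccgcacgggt
Mcm10: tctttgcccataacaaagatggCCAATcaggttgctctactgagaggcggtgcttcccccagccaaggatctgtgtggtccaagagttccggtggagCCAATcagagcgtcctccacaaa
Mcm6: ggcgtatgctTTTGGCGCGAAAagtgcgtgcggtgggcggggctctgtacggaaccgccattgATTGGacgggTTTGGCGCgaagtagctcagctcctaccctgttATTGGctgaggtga
Cdc20: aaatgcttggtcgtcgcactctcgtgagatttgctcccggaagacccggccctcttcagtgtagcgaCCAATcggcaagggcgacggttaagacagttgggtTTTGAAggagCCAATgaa
Cenpa: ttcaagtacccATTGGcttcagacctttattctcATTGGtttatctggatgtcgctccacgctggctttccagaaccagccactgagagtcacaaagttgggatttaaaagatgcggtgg
Top2a: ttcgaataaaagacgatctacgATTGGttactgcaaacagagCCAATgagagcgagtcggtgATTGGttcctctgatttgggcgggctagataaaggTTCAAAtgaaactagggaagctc
Ccnb1: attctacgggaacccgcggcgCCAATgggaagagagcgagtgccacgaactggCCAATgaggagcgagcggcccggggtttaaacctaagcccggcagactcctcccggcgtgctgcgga
Cdk4: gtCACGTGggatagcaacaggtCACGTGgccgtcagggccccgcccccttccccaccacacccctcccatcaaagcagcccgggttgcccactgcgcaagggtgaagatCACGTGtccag
Mcm6 had its E2F matches and 2 CCAAT matches within 120 bases. Top2a had 3 CCAAT matches and 1 CHR, and Cdc20 had 2 CCAAT matches and 1 CHR. Mcm7, Mcm10, Cenpa and Ccnb1 had 2 CCAAT matches each and none of the other motifs in the printed window. A match is a description of the letters and says nothing of what binds there.

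The deposited values are RPKM, reads per kilobase per 1e6 reads, and the kilobases were those of the whole gene with its introns. On that scale a gene's values can be compared between groups. Levels of different genes are therefore given on a second scale, exon RPKM, which divides by exon length. That length joins all annotated exons of a gene and can exceed that of any single transcript. Ranks and ratios between genes on this scale therefore depend on the annotation as well as on the RNA. The depth recovered from the values in units of 1e6 reads was 111.1 for empty vector, 54.0 for SKM, 74.7 for OSKM and 101.5 for G3SKM. The delivered genes went with the labels for Sox2 (0.260 RPKM in empty vector, 70.7 to 187 in the factor groups), Klf4 (6.26 against 8.55 to 19.3), Pou5f1 (3.69 in OSKM, at most 0.297 elsewhere) and Gata3 (0.571 in G3SKM, at most 0.0836 elsewhere). Myc was the exception, at 16.0 RPKM with empty vector and at 11.9 (SKM), 10.5 (OSKM) and 6.31 (G3SKM) in the factor groups, so delivery of c-MYC rests on the labels. Fibroblast markers (11 of 11 listed, none at 0) summed to 2091 exon RPKM with empty vector, 1609 with SKM, 913 with OSKM and 914 with G3SKM, led by Col1a1. Macrophage markers (8 of 8 listed, led by Lyz2 in empty vector) summed to 142 in empty vector and 5.35 to 13.8 in the factor groups, where 1 of them, Adgre1, was at 0 in OSKM. Keratinocyte markers (8 of 8 listed, led by Krt14 in the factor groups) summed to 1.31 in empty vector, with Trp63, Krt1, Krt15 and Dsg3 at 0, and to 52.7 to 91.3 in the factor groups. Endothelial markers (5 of 5 listed) summed to at most 3.27 and pluripotent cell markers (7 of 7 listed) to at most 2.11 in any group. The part of these cell types in the differences below was not tested. In bulk RNA, fewer cells in cycle and less RNA per cycling cell cannot be told apart.

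All 50 genes had reads in every group, from 221 for E2f2 in empty vector to 80922 for Ccnd2 in the same group. OSKM was the highest group for 22 of them, G3SKM for 11, SKM for 10 and empty vector for 7. At the other end, SKM was the lowest group for 20 and empty vector for 19, against 10 for G3SKM and 1, Gins2, for OSKM. These counts were not made over all genes, so they cannot be read as particular to the 50. The median log2 ratio of all genes against empty vector was itself above 0, at 0.15 in SKM, 0.18 in OSKM and 0.17 in G3SKM. The spread was mostly narrow: the highest group was a median of 1.73 times the lowest, under 1.5 times for 19 genes and over 2 times for 13. E2f2 had the widest range, at 7.46 times.

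**Figure D1:**
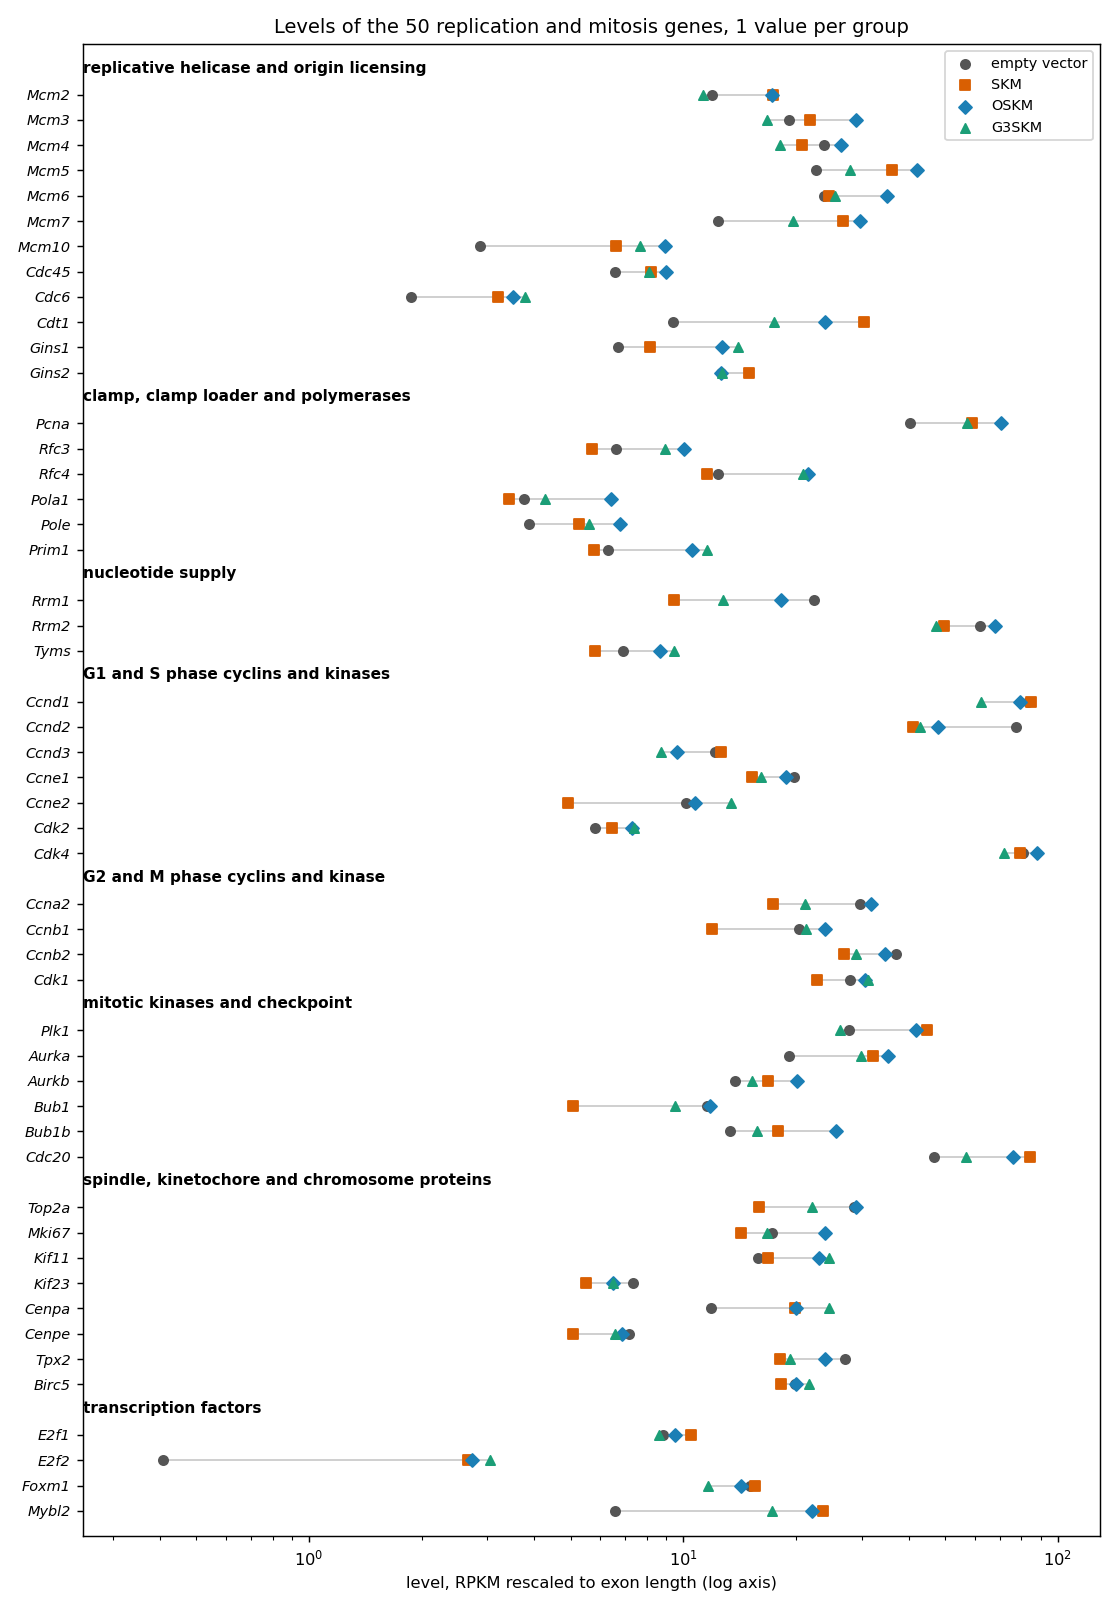
Exon RPKM on a log axis for each of the 50 genes in rows by role, with 1 point per group (grey circle empty vector, orange square SKM, blue diamond OSKM, green triangle G3SKM) and a line from the lowest to the highest. There are no error bars, since each point is a single value. OSKM is the rightmost point for 22 genes, a count that was not made over all genes, and E2f2 has the widest range.

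A gene was said to rise or fall between 2 groups when its ratio of RPKM, with 1 RPKM added to both, was at least 1.5 (0.58 on the log2 scale), provided that either group reached 1 RPKM. The share of all genes passing the same rule is given beside each count over the 50 genes. Fold values are ratios of RPKM with nothing added, and their 95% Clopper-Pearson intervals come from the recovered reads and cover counting error only. The intervals are approximate for Mcm2, Mcm3, Mcm5, Cdt1, Prim1, Ccnd3, Cdk2, Ccna2, Ccnb1, Ccnb2, Cdk1, Plk1, Mki67, Kif23, Cenpa, Cenpe, Birc5 and Foxm1, whose values did not all fall on whole reads. The other 32 passed this check. Its tolerance grew with the number of reads, so for genes with many reads a pass says little. The 6 comparisons are not independent, since each group enters 3 of them.

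In OSKM against empty vector, 10 of the 47 genes compared rose: Mcm5, Mcm7, Mcm10, Cdt1, Pcna, Aurka, Bub1b, Cdc20, Cenpa and Mybl2. That is 21.3% of the genes described here, beside 17.0% of all genes compared. Of the 11 helicase and licensing genes compared, 4 rose and 7 did not pass the rule. Ccnd2, which encodes cyclin D2, was the 1 gene that fell, beside 9.48% of all. The median log2 ratio of the 47 was 0.25, beside 0.18 for all genes. Because that median for all genes lies above 0, the counts were repeated with it subtracted: 6 genes then rose (Mcm5, Mcm7, Mcm10, Cdt1, Pcna and Mybl2), beside 9.68% of all, and Ccnd2 fell, beside 14.0%. On the exon scale, where all 50 could be compared, 17 (34.0%) rose, beside 24.3%, and 1 fell, beside 10.4%. E2f2, Cdc6, Gins1, Rfc4, Pola1, Pole and Prim1 were added there.

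In G3SKM against empty vector, 6 of 46 genes rose, Mcm7, Mcm10, Cdt1, Prim1, Cenpa and Mybl2, which is 13.0% beside 20.9% of all genes. Rrm1 and Ccnd2 fell, beside 9.33%. The median log2 ratio was 0.07, below the 0.17 of all genes. With that median subtracted, 4 rose (Mcm10, Cdt1, Cenpa and Mybl2), beside 13.3%, and 3 fell (Rrm1, Ccnd2 and Ccna2), beside 14.4%. Per exon length, 12 of 50 rose, beside 26.1%, and 2 fell, beside 11.1%.

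In SKM against empty vector the genes parted in both directions. Higher in SKM were Mcm7, Mcm10, Cdt1, Plk1, Aurka, Cdc20, Cenpa and Mybl2, 8 of 46 genes or 17.4%, beside 23.7% of all. Lower in SKM were Rrm1, Ccnd2, Ccne2, Ccna2, Ccnb1, Bub1 and Top2a, 7 of 46 or 15.2%, beside 15.3%. The median log2 ratio was 0.03, against 0.15 for all genes. With the latter subtracted, 4 rose (Mcm7, Cdt1, Cdc20 and Mybl2), beside 17.2%, and the same 7 fell, beside 20.5%. Per exon length, 10 of 50 rose, beside 26.5%, and 7 fell, beside 17.3%.

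In OSKM against SKM, 8 of 46 genes rose, Rfc3, Rrm1, Ccne2, Ccna2, Ccnb1, Bub1, Top2a and Mki67, which is 17.4% beside 11.2% of all genes. None fell, beside 8.15%. The median log2 ratio was 0.24, with 36 of the 46 above 0, against a median of -0.01 over all genes. With exon length, 12 of 50 rose, beside 16.0%, and none fell, beside 9.70%. In G3SKM against SKM, 3 of 45 genes rose, Prim1, Ccne2 and Ccnb1, beside 13.7%, and Cdt1 and Plk1 fell, beside 8.66%. The median there was 0.06, with 25 above 0 and 20 below. With exon length, 7 of 50 rose, beside 15.2%, and 2 fell, beside 8.98%.

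**Figure D2:**
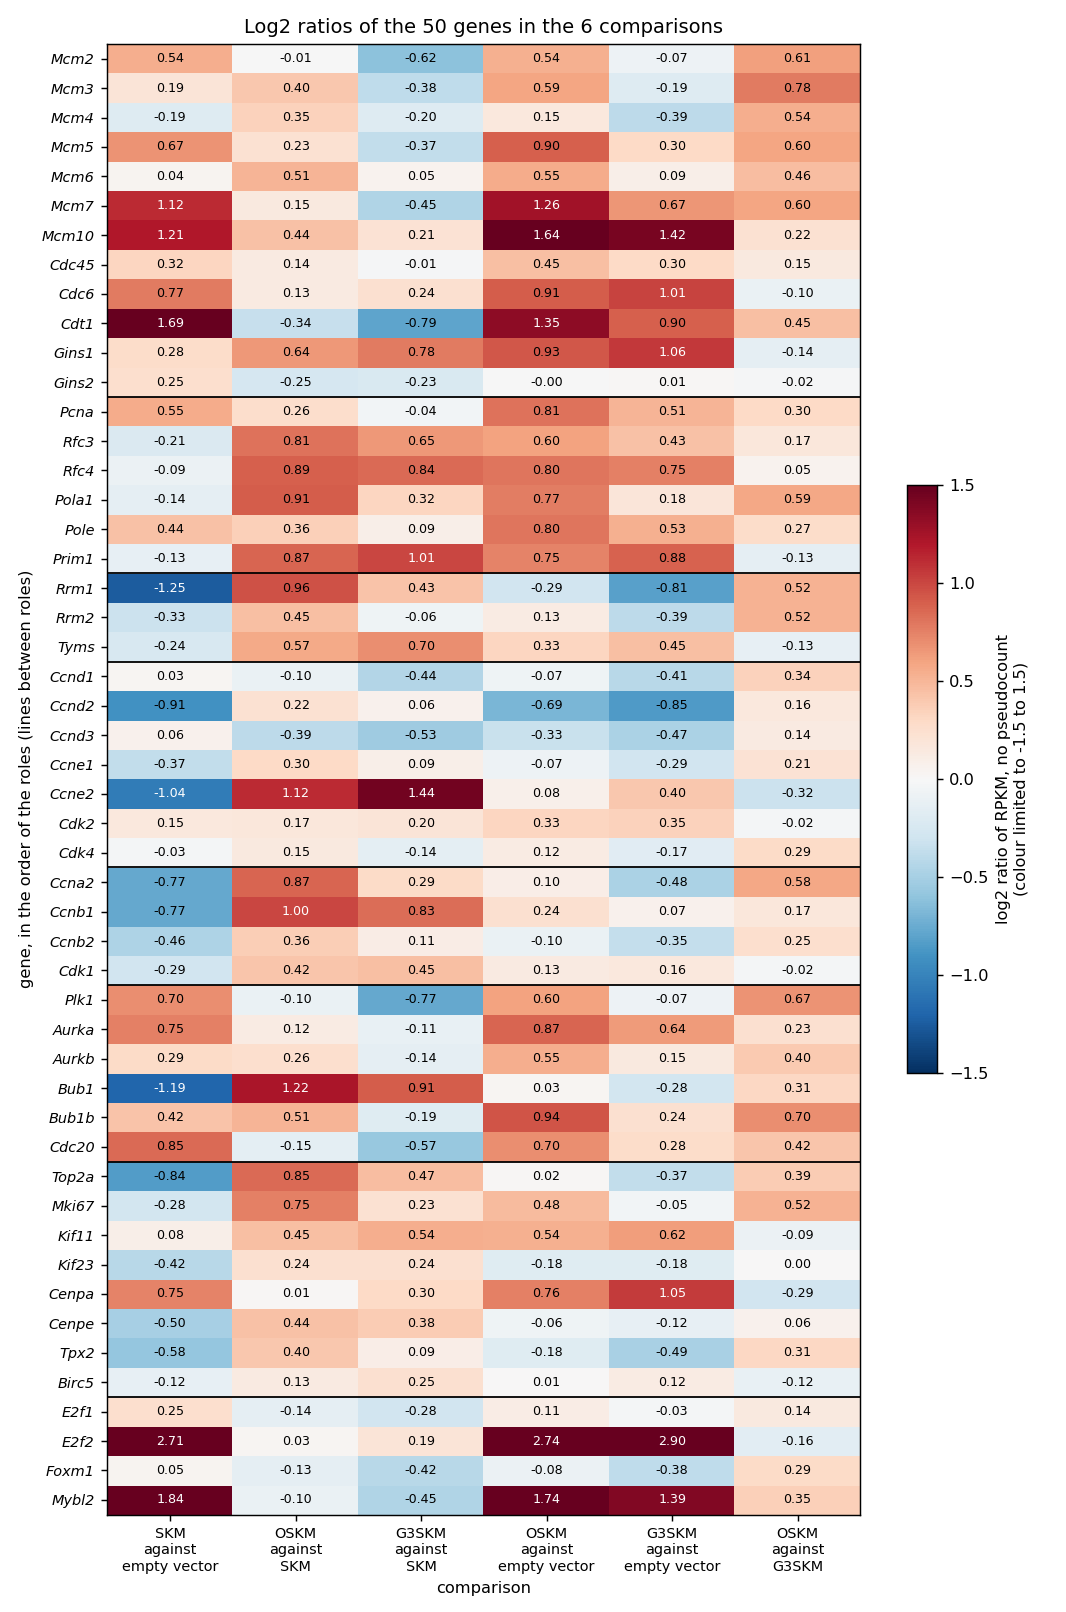
Log2 ratios of RPKM, with nothing added, for the 50 genes (rows, lines between roles) in the 6 comparisons (columns); red is higher in the first-named group, blue lower, and colour stops at 1.5 in either direction. Rrm1, Ccne2, Ccna2, Ccnb1, Bub1 and Top2a are blue in the SKM against empty vector column and red in the OSKM against SKM column, which share the SKM value.

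The comparisons that contain SKM followed the base composition of the transcripts. Transcript GC content ran from 37.5% for Ccne2 to 58.6% for Cdt1, with a median of 48.8%. In SKM against empty vector, the 25 genes of lowest GC had a median log2 ratio of -0.24 and the 25 of highest GC 0.44. In OSKM against SKM these medians were 0.57 and 0.12, and in G3SKM against SKM 0.38 and -0.23. Spearman's rho of the log2 ratio with GC over the 50 genes was 0.64, -0.85 and -0.79 in these comparisons. These medians and rho values used ratios with nothing added and no filter. Over all genes compared, with 1 RPKM added and the filter applied, rho was 0.51, -0.73 and -0.73. The sizes are thus not on the same measure, but the trend was not limited to the 50. Over the 50 genes it was weak where SKM took no part: 0.17 in OSKM against empty vector, 0.08 in G3SKM against empty vector and 0.13 in OSKM against G3SKM. These are descriptions across genes that share the same libraries.

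With the trend of all genes removed in 20 GC bins, SKM against empty vector gave 7 risen genes, beside 18.7% of all, namely Mcm7, Mcm10, Cdt1, Cenpa and Mybl2 from before with Pcna and Kif11 added. Only Ccnd2 still fell in that setting, beside 11.2%. Of the genes that fell before, Ccne2 moved from -0.68 to -0.02 on the log2 scale, Bub1 from -0.62 to 0.03 and Rrm1 from -1.06 to -0.55. In OSKM against SKM no gene rose, beside 4.49%, or fell, beside 4.01%, and the same held in G3SKM against SKM, beside 6.31% and 3.44%. In OSKM against SKM the median stayed above 0, at 0.17, and in G3SKM against SKM it was -0.06. Whether the trend comes from the libraries or the cells was not tested.

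**Figure D3:**
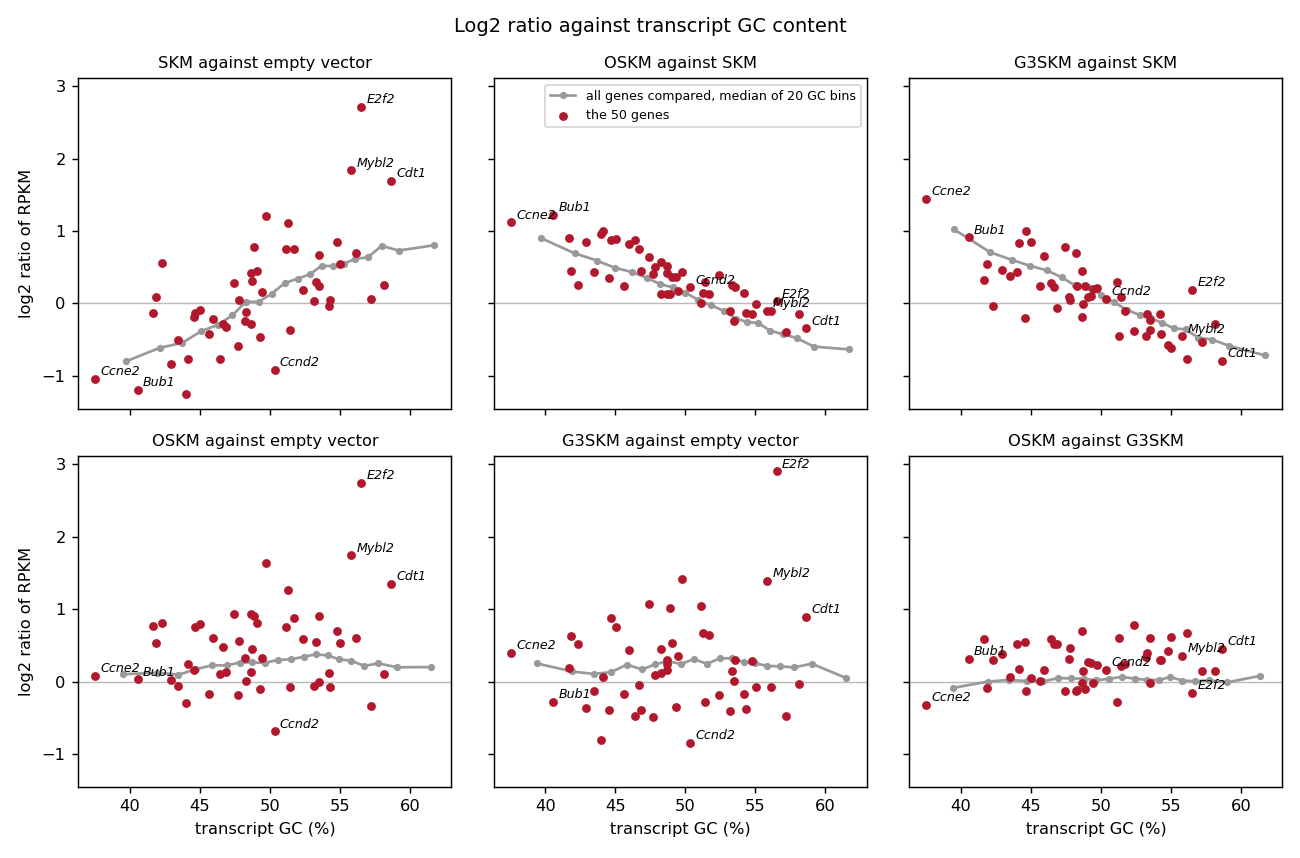
Log2 ratio of RPKM, with nothing added (vertical), against transcript GC in percent (horizontal) for the 50 genes (red points) in the 6 comparisons, with the median of all genes compared in 20 GC bins (grey line). The grey line rises with GC in SKM against empty vector, falls in OSKM and G3SKM against SKM, and is nearly flat in the comparisons without SKM; Ccnd2, Cdt1 and Mybl2 lie off it in SKM against empty vector.

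By their labels OSKM and G3SKM differ in 1 factor, OCT4 or GATA3, and their comparison does not use SKM. The shared factors also read higher in OSKM than in G3SKM: Sox2 at 110 and 70.7 RPKM, Klf4 at 13.9 and 8.55, and Myc at 10.5 and 6.31. Whether these differences play a part in those below was not tested. Plk1 and Mcm3 rose in OSKM against G3SKM, 2 of 45 genes, beside 3.29% of all, and none fell, beside 6.86%. With the median of all genes subtracted, Plk1 moved from 0.587 to 0.575 on the log2 scale, just under the rule, so Mcm3 alone rose, beside 3.10% of all, and none fell, beside 7.08%. On the exon scale Bub1b joined them, 3 of 50, beside 5.44%, and again none fell, beside 6.76%. Small differences were more common: 35 of the 45 were above 0, with a median log2 ratio of 0.20, beside 0.01 for all genes. Mcm3 was 1.72 times as high in OSKM (1.66 to 1.78), Bub1b 1.62 times (1.57 to 1.68) and Plk1 1.59 times (1.54 to 1.65). Ccne2 was the furthest the other way, 1.25 times as high in G3SKM (1.19 to 1.31), then Cenpa at 1.22 times (1.19 to 1.25). With 1 value per group, ratios of this size have no replicate check.

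**Figure D4:**
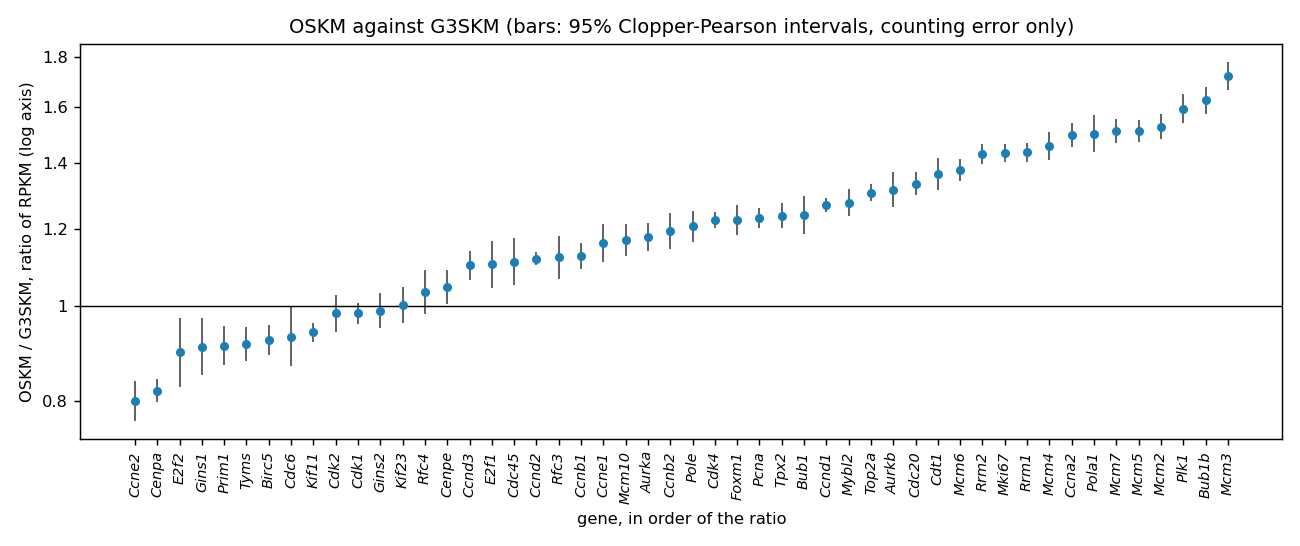
Ratio of RPKM in OSKM to that in G3SKM on a log axis for the 50 genes in order of the ratio; bars are 95% Clopper-Pearson intervals from the recovered reads, for counting error only. The ratios run from 0.80 for Ccne2 to 1.72 for Mcm3, with the 6 genes of the Mcm2 to Mcm7 ring between 1.38 and 1.72.

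The genes of the helicase ring, MCM2 to MCM7, stood at 11.9 to 23.8 exon RPKM in empty vector, 17.4 to 36.0 in SKM, 17.3 to 42.1 in OSKM and 11.3 to 27.9 in G3SKM. The proteins sit 1 each in the ring, and the most abundant transcript was 2.00 to 2.46 times the least abundant in any group. Mcm2 was the lowest of them in every group. It also had the longest joined exons, 6956 bases beside 3589 (Mcm4) to 4666 (Mcm6), so its rank depends on the annotation. Their sum was 113.5 exon RPKM with empty vector, 147 with SKM, 179 with OSKM and 119 with G3SKM, so OSKM was highest and G3SKM close to empty vector. All 6 were higher in OSKM than in G3SKM, by 1.38 times for Mcm6 to 1.72 times for Mcm3, although Mcm3 alone passed the rule.

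Mcm7 stood at 6.97 RPKM with empty vector, 15.1 with SKM, 16.7 with OSKM and 11.1 with G3SKM. It was lowest in empty vector, by 2.17 times against SKM (2.09 to 2.24), 2.40 times against OSKM (2.32 to 2.48) and 1.59 times against G3SKM (1.53 to 1.64). Its exons overlap Ap4m1 and Cops6 on the opposite strand and hold Mir25 and Mir93, and whether reads were counted by strand is not given in the sources used here. Mcm5 stood at 4.79 RPKM with empty vector, 7.63 with SKM, 8.92 with OSKM and 5.90 with G3SKM, 1.86 times as high in OSKM as in empty vector (1.81 to 1.91). Mcm3 read 4.14 RPKM with empty vector, 4.73 with SKM, 6.24 with OSKM and 3.63 with G3SKM, so its high value was in OSKM alone. Mcm2, Mcm4 and Mcm6 passed the rule in no comparison.

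Of the genes that load and start the ring, Cdt1 and Mcm10 had the widest ranges, and Gins2 and Cdc45 varied less than any gene of the ring. Cdt1, the loader that is destroyed once S phase begins, stood at 5.32 RPKM with empty vector, 17.2 with SKM, 13.55 with OSKM and 9.92 with G3SKM. It was lowest in empty vector, with SKM 3.23 times as high (3.09 to 3.37), OSKM 2.55 times (2.44 to 2.66) and G3SKM 1.86 times (1.78 to 1.95). Mcm10, which helps to activate the loaded helicase, stood at 0.954 RPKM with empty vector, 2.20 with SKM, 2.98 with OSKM and 2.55 with G3SKM. Its factor groups were 2.31 times (SKM, 2.18 to 2.44), 3.12 times (OSKM, 2.97 to 3.28) and 2.67 times (G3SKM, 2.55 to 2.80) the empty vector value. After centring it still rose in OSKM and G3SKM against empty vector but not in SKM, where it did rise with the GC trend removed.

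Cdc6, the partner of CDT1 in loading and the lowest of this role on the exon scale, had low values: 0.608 RPKM with empty vector, 1.04 with SKM, 1.14 with OSKM and 1.23 with G3SKM. The empty vector value was the lowest, and G3SKM was 2.02 times as high (1.87 to 2.17), which the added 1 RPKM kept under the rule. The ratio of Cdt1 to Cdc6 on the exon scale, with the GC trend left in, was 5.01 with empty vector, 9.45 with SKM, 6.79 with OSKM and 4.63 with G3SKM. Gins1, of the complex that activates the helicase, had 0.392 RPKM with empty vector, 0.476 with SKM, 0.744 with OSKM and 0.819 with G3SKM, under the filter of 1 RPKM throughout. Its partner Gins2 varied least of the helicase and licensing genes, from 4.83 RPKM in OSKM to 5.74 in SKM. Cdc45 ranged from 0.731 RPKM in empty vector to 1.00 in OSKM.

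Pcna, the sliding clamp, was the highest of the clamp, clamp loader and polymerase genes in each group, at 40.2 exon RPKM with empty vector, 59.0 with SKM, 70.6 with OSKM and 57.4 with G3SKM. It rose in OSKM against empty vector, at 1.76 times (1.71 to 1.80). The tables also list a processed pseudogene, Pcna-ps2, with 8101 reads in empty vector beside 10722 for Pcna itself, and reads may be split between near-identical copies. With both added together, OSKM was 1.66 times empty vector (1.63 to 1.70), and SKM was 1.17 times empty vector in place of 1.47 times. Pola1, the catalytic subunit of the polymerase that starts each strand, was lowest of this role, at 3.76 exon RPKM with empty vector, 3.42 with SKM, 6.40 with OSKM and 4.27 with G3SKM. Its gene is long, and its RPKM over the whole gene was at most 0.172.

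The primase subunit Prim1 had 1.64 RPKM with empty vector, 1.4998 with SKM, 2.74 with OSKM and 3.01 with G3SKM. OSKM and G3SKM lay above empty vector and SKM, with G3SKM 2.01 times SKM (1.88 to 2.14) and 1.84 times empty vector (1.76 to 1.93). The call against SKM was lost with the GC trend removed, and that against empty vector after centring. Rfc3, of the clamp loader, had 2.82, 2.43, 4.27 and 3.81 RPKM in empty vector, SKM, OSKM and G3SKM. It rose in OSKM against SKM, at 1.76 times (1.64 to 1.89), a call lost with the GC trend removed. Rfc4 of the same loader had 1.37, 1.29, 2.39 and 2.32 RPKM in that order, and its ratio of 1.86 in OSKM against SKM (1.72 to 2.00) missed the rule by the added 1 RPKM. Its exons overlap those of Eif4a2 on the opposite strand. For Pole, of the leading strand polymerase, the range was 0.845 RPKM in empty vector to 1.48 in OSKM.

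Of the nucleotide supply genes, Rrm1 and Rrm2 encode the large and small subunits of ribonucleotide reductase, and Tyms makes thymidylate. Rrm1 stood at 8.78 RPKM with empty vector, 3.70 with SKM, 7.17 with OSKM and 4.99 with G3SKM. Empty vector was the highest group, 2.37 times SKM (2.31 to 2.44) and 1.76 times G3SKM (1.72 to 1.79). With the GC trend removed, the SKM call was lost and the G3SKM call held. Rrm2 was the highest of this role, at 62.2 exon RPKM with empty vector, 49.6 with SKM, 67.9 with OSKM and 47.4 with G3SKM, and passed the rule nowhere. The ratio of Rrm1 to Rrm2 on the exon scale was 0.360 with empty vector, 0.190 with SKM, 0.269 with OSKM and 0.268 with G3SKM. The joined exons were 11012 bases for Rrm1 and 2771 for Rrm2. The size of the ratio, unlike its change between groups, depends on these lengths. Tyms, the lowest, had 2.72 RPKM with empty vector, 2.30 with SKM, 3.41 with OSKM and 3.73 with G3SKM.

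The D cyclins, which carry growth signals to CDK4, did not move alike. Ccnd2 had 26.9 RPKM with empty vector, 14.3 with SKM, 16.7 with OSKM and 14.9 with G3SKM. The empty vector value stood apart from the factor groups, 1.88 times SKM (1.85 to 1.91), 1.61 times OSKM (1.59 to 1.63) and 1.80 times G3SKM (1.78 to 1.82). In these 3 comparisons its call also held with values centred or with the GC trend removed. Ccnd2 overlaps 2 transcripts on the opposite strand, 9330179D12Rik and Gm43126. Ccnd1, cyclin D1, was 39.2 RPKM with empty vector, 40.1 with SKM, 37.4 with OSKM and 29.5 with G3SKM, within the rule throughout. On the exon scale Ccnd2 was 0.931 of Ccnd1 with empty vector and 0.483 (SKM), 0.605 (OSKM) and 0.687 (G3SKM) with the factors. Cyclin D3 (Ccnd3) ranged from 0.811 RPKM in G3SKM to 1.17 in SKM, and a pseudogene of it, Ccnd3-ps, had 674 to 1426 reads.

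Cdk4 and Ccnd1 shared the top of this role, with Cdk4 at 80.8 exon RPKM with empty vector, 79.2 with SKM, 87.9 with OSKM and 71.8 with G3SKM. Cdk4 differed by at most 1.22 times between any 2 groups. Cdk2, its S phase counterpart, was lowest in 3 of 4 groups, at 5.80, 7.27 and 7.40 exon RPKM in empty vector, OSKM and G3SKM. The E cyclins activate CDK2. Ccne2 stood at 2.65 RPKM with empty vector, 1.28 with SKM, 2.79 with OSKM and 3.49 with G3SKM, so SKM was low and G3SKM highest. SKM was below the others by 2.06 times against empty vector (1.92 to 2.22), 2.18 times against OSKM (2.02 to 2.35) and 2.72 times against G3SKM (2.53 to 2.92). Ccne2 had the lowest GC content of the 50, and on the RPKM scale no difference of it passed the rule once the GC trend was removed. On the exon scale with the trend removed, G3SKM against SKM still passed, at a log2 ratio of 0.63. Ccne1 was flatter, from 4.24 RPKM in SKM to 5.49 in empty vector, and the ratio of Ccne2 to Ccne1 on the exon scale was 0.516 with empty vector, 0.324 with SKM, 0.572 with OSKM and 0.829 with G3SKM.

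Of the cyclins and the kinase of G2 and M phase, all 4 were lowest in SKM. Ccna2, cyclin A2, had 16.6 RPKM with empty vector, 9.73 with SKM, 17.8 with OSKM and 11.9 with G3SKM. SKM was 1.70 times below empty vector (1.64 to 1.77), and OSKM was 1.83 times SKM (1.76 to 1.90) and 1.497 times G3SKM (1.45 to 1.54), the last within the rule. Ccnb1, cyclin B1, had 10.8 RPKM with empty vector, 6.36 with SKM, 12.8 with OSKM and 11.3 with G3SKM, so SKM alone was low. OSKM was 2.01 times SKM (1.92 to 2.10). With the GC trend removed, no call of Ccna2 or Ccnb1 held in a comparison with SKM. In SKM against empty vector, Ccna2 moved from -0.71 to -0.36 on the log2 scale and Ccnb1 from -0.68 to -0.18. Its pseudogene Ccnb1-ps had 2527 to 6939 reads per group.

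Ccnb2 was the highest of this role in empty vector, SKM and OSKM, at 36.9, 26.8 and 34.5 exon RPKM, and stood at 28.9 in G3SKM. Cdk1, the kinase that drives entry into mitosis, was highest in G3SKM, at 31.1 exon RPKM, with 27.9 in empty vector, 22.8 in SKM and 30.5 in OSKM. Neither passed the rule in any comparison. Against empty vector, Cdk1 was 1.10 times in OSKM (1.07 to 1.12) and 1.11 times in G3SKM (1.09 to 1.14).

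The mitotic kinases and checkpoint genes held the highest value of any mitotic gene here, Cdc20, and 1 of the lowest, Bub1. CDC20 activates the ligase that ends mitosis, and its gene had 19.6 RPKM with empty vector, 35.3 with SKM, 31.8 with OSKM and 23.8 with G3SKM. SKM was 1.80 times empty vector (1.75 to 1.85) and OSKM 1.62 times (1.58 to 1.67), with G3SKM at 1.21 times within the rule. The OSKM call was lost after centring, and the SKM call after removal of the GC trend. Cdc20 exons overlap those of Elovl1 on the opposite strand. Plk1, whose exons overlap Gm44985 on the opposite strand and which encodes the Polo-like kinase of spindle poles and kinetochores, had 5.82 RPKM with empty vector, 9.44 with SKM, 8.82 with OSKM and 5.54 with G3SKM. The groups fell in pairs, with SKM and OSKM high and empty vector and G3SKM low: SKM was 1.62 times empty vector (1.56 to 1.68) and 1.70 times G3SKM (1.64 to 1.77). The first of these was lost after centring, and both after removal of the GC trend.

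Aurka, the kinase that matures spindle poles, had 3.38 RPKM with empty vector, 5.68 with SKM, 6.19 with OSKM and 5.26 with G3SKM. Empty vector was the lowest group, with SKM at 1.68 times (1.62 to 1.75), OSKM at 1.83 times (1.77 to 1.90) and G3SKM at 1.56 times (1.505 to 1.61), the last under the rule. Both calls were lost after centring. Aurkb, the kinase that corrects faulty attachments, ranged from 6.73 RPKM in empty vector to 9.83 in OSKM and passed nowhere. The checkpoint kinase Bub1 had 1.64 RPKM with empty vector, 0.717 with SKM, 1.67 with OSKM and 1.35 with G3SKM, so SKM alone was low, 2.28 times below empty vector (2.14 to 2.43). Its relative Bub1b had 1.32 RPKM with empty vector, 1.77 with SKM, 2.52 with OSKM and 1.55 with G3SKM, and OSKM was high, 1.92 times empty vector (1.86 to 1.98). Bub1b lost its call after centring and after removal of the GC trend. Bub1 lost its call in SKM against empty vector with the GC trend removed, at a log2 ratio of 0.03.

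Among the spindle, kinetochore and chromosome proteins, Top2a, which untangles sister chromosomes, was the highest in empty vector and OSKM, and Cenpa in SKM and G3SKM. Top2a had 8.23 RPKM with empty vector, 4.60 with SKM, 8.32 with OSKM and 6.37 with G3SKM. Empty vector and OSKM were within 1.01 times of each other (0.992 to 1.03), and SKM was 1.79 times below empty vector (1.74 to 1.83). That SKM call was lost with the GC trend removed, at a log2 ratio of -0.16. Cenpa, the histone variant that marks centromeres, had 8.61 RPKM with empty vector, 14.4 with SKM, 14.6 with OSKM and 17.8 with G3SKM. Empty vector was the lowest, with SKM at 1.68 times (1.62 to 1.73), OSKM at 1.69 times (1.64 to 1.75) and G3SKM at 2.07 times (2.01 to 2.12). After centring the G3SKM call stayed and the other two were lost.

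Mki67, whose product Ki-67 coats mitotic chromosomes and is the usual stain for cells in cycle, had 6.53 RPKM with empty vector, 5.39 with SKM, 9.07 with OSKM and 6.32 with G3SKM. OSKM was the high group, 1.68 times SKM (1.64 to 1.73) and 1.39 times empty vector (1.36 to 1.42), the latter within the rule. The call against SKM was lost with the GC trend removed. The kinesin Kif11 had 2.60, 2.76, 3.77 and 4.01 RPKM in empty vector, SKM, OSKM and G3SKM, with no call on the RPKM scale before removal of the GC trend. The lowest of this role were the kinetochore motor Cenpe in empty vector and SKM (7.17 and 5.07 exon RPKM) and Kif23, a motor of cell separation, in OSKM and G3SKM (6.51 and 6.495). Kif23, Cenpe, Tpx2 and Birc5, which encodes survivin, passed the rule in no comparison.

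Of the transcription factors, Mybl2 and E2f2 were low in empty vector and E2f1 and Foxm1 were not. Mybl2 had 1.02 RPKM with empty vector, 3.64 with SKM, 3.40 with OSKM and 2.66 with G3SKM. It was 3.58 times empty vector in SKM (3.43 to 3.74), 3.35 times in OSKM (3.21 to 3.48) and 2.62 times in G3SKM (2.52 to 2.73), and passed the rule after centring in these comparisons. E2f2 had 0.084 RPKM with empty vector, 0.550 with SKM, 0.563 with OSKM and 0.627 with G3SKM. These stand for 221, 704, 995 and 1507 recovered reads, and the ratio to empty vector was 6.55 in SKM (5.62 to 7.65), 6.70 in OSKM (5.78 to 7.78) and 7.46 in G3SKM (6.48 to 8.64). E2f2 lay under 1 RPKM in every group and so entered no count on that scale, and it was the lowest of this role on the exon scale, at 0.407 exon RPKM in empty vector and 2.67, 2.73 and 3.04 in SKM, OSKM and G3SKM. E2f1 had 2.65, 3.15, 2.86 and 2.59 RPKM in empty vector, SKM, OSKM and G3SKM. Foxm1, the mitotic activator, had 6.57, 6.79, 6.21 and 5.07 RPKM in that order, and neither passed in any comparison.

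Other genes of the same pathways were counted by the same rule. Of 34 further replication genes, 29 were compared in OSKM against empty vector: 9 rose and none fell, beside 17.0% and 9.48% of all genes, with Pold2, a subunit of the lagging strand polymerase, at 4.64 and 16.0 RPKM (log2 ratio 1.59), Dut at 0.98 and Pola2 at 0.92. In SKM against empty vector 7 of 24 rose and none fell, beside 23.7% and 15.3%, led by Pold2 (1.86), Pold1 (1.11) and Pola2 (0.97). After centring, 4 of the 24 rose, beside 17.2% of all genes: these 3 and Dut. In G3SKM against empty vector 6 of 27 rose and none fell, beside 20.9% and 9.33%, led by Pold2 (1.02), Cdc7 (0.93) and Rpa3 (0.92). The OSKM and G3SKM counts against empty vector are given before centring only, and the medians of all genes there were 0.18 and 0.17. In G3SKM against SKM 5 of 27 rose (led by Tipin, Rpa3 and Orc6) and 2 fell (Pold2 at -0.84 and Pold1 at -0.62), beside 13.7% and 8.66%. In OSKM against SKM 1 of 29 rose, Tipin at 0.60, and none fell, beside 11.2% and 8.15%. With the GC trend removed, no further replication gene passed in either comparison with SKM. In OSKM against G3SKM none of 30 passed, beside 3.29% and 6.86%.

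Of 42 further mitosis genes, 33 were compared in SKM against empty vector: Espl1 (0.95) and Ncapd2 (0.64) rose and 5 fell, led by the cytokinesis genes Anln (-0.96), Kif20a (-0.92) and Prc1 (-0.88), beside 23.7% and 15.3% of all genes. The balance depended on the setting. With the GC trend removed 5 rose, beside 18.7%, and 1 fell, Kif20a, beside 11.2%, and Ncapd2, Anln, Prc1, Smc2 and Spc25 lost their calls. After centring, 1 rose, Espl1, and 10 fell, beside 17.2% and 20.5%. In OSKM against SKM 5 of 34 rose, led by the checkpoint gene Mad2l1 (0.79) and Smc4 (0.70), and none fell, beside 11.2% and 8.15%. In G3SKM against SKM 2 of 33 rose, Mad2l1 (0.83) and Spc25 (0.75), and none fell, beside 13.7% and 8.66%. All of these calls of OSKM and G3SKM against SKM were lost with the GC trend removed.

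In OSKM against empty vector 4 of 34 further mitosis genes rose, led by Pttg1 (0.97), Nusap1 (0.78) and Cdca5 (0.64), and Anln fell (-0.72), beside 17.0% and 9.48%. After centring, 2 rose, Pttg1 and Nusap1, and 2 fell, Anln and Prc1, beside 9.68% and 14.0%. In G3SKM against empty vector 2 of 34 rose (Cenph and Espl1) and 2 fell (Anln and Kif20a), beside 20.9% and 9.33%. After centring, Cenph alone rose and 4 fell, beside 13.3% and 14.4%. In OSKM against G3SKM none of 35 passed, beside 3.29% and 6.86%.

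Of 19 genes that slow the cell cycle, 13 were compared. Against empty vector, 4 rose and 1 fell in SKM, 1 rose and 1 fell in OSKM, and 2 rose and 1 fell in G3SKM, beside the shares of all genes given above for these comparisons. Btg2 was the gene that fell, at -0.90 in SKM, -1.38 in OSKM and -0.92 in G3SKM, from 23.6 RPKM in empty vector to 12.2, 8.43 and 12.0. Cdkn2a, which encodes p16 and ARF, rose against empty vector in all 3, from 0.440 RPKM to 2.08, 2.20 and 1.51. Pkmyt1, a kinase that restrains CDK1, rose in SKM (1.16) and G3SKM (0.77) against empty vector, and E2f4 (0.72) was among those that rose in SKM. These calls of Btg2, Cdkn2a and Pkmyt1 held with values centred and with the GC trend removed, and that of E2f4 was lost in both. Pkmyt1 (-0.78) and Cdkn2b (-0.73) fell in OSKM against SKM and none rose, beside 8.15% and 11.2% of all genes, and both calls were lost with the GC trend removed. In G3SKM against SKM and OSKM against G3SKM none of the 13 passed.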

How the data were processed

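RNA-seq values of 4 groups were read from 3 tables. Per the file headers, the authors deposited RPKM per gene for both groups of each table, with the log2 of their ratio; the latter differed from the log2 of the deposited columns by at most 0.0017 and was not used further. Reads were aligned with TopHat 1.3.0 to mm9, per the submitters' processing notes; per the labels' protocols, cDNA was amplified with further PCR before library making. The counter, annotation, strand setting and way of combining replicates were not given in the sources used here. The SKM column was the same in all tables (largest difference 0), so columns of different tables were set side by side. A value of 0.001 was read as 0. Symbols, spans, exon lengths and GC came from GENCODE M21, a later build than the values, which covered 25103 genes (91.0%).

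RPKM multiplied by the gene span fell within 0.05 of whole multiples of 1 step for 75.8% (empty vector), 74.3% (SKM), 75.2% (OSKM) and 76.3% (G3SKM) of genes, against 10% by chance, among genes of 1 to 1000 reads. That step gave depth and reads. PCR copies are not independent molecules. Any of the 50 genes could be named; values in all groups were given for those past the rule in a comparison and the highest and lowest of each role, and of the further lists up to 3 risen and 3 fallen genes. The genes, lists and rule were chosen with earlier results of these data known. Alternatives were a pseudocount of 0.1 RPKM, no filter, a 2-fold rule, centring, removal of the GC trend in 20 bins, exon length, and the latter pair together. The scripts were tested on simulated data. Python 3.11.15, pandas 2.3.3, numpy 2.4.6, SciPy 1.17.1 and matplotlib 3.10.9 were used.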

Additional observations from a re-analysis of the deposited data

How the results depend on the processing

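The 18 results were risen genes, fallen genes and median log2 ratio in each of 6 comparisons, under 7 settings. Of 120 alternative values, 85 were classed as the same as the reported value, 31 as moved and 4 as changed in sign. The class of same values was broad and holds some clear shifts. In OSKM against empty vector it holds 15 risen genes (25.8%) in place of 10 with a pseudocount of 0.1 RPKM. It also holds a median there of 0.4275 in place of 0.2456 with exon length. In SKM against empty vector it holds a median of 0.1259 in place of 0.0318 with the GC trend removed. Unless said, the cause of a shift was not tested. The percentages in parentheses are the shares of all genes past the same rule. A pseudocount of 0.1 RPKM, which shrinks ratios of low genes less, gave 7 risen genes in G3SKM against SKM (20.8%), 10 in G3SKM against empty vector (29.3%) and 6 in OSKM against G3SKM (5.90%). The 2-fold rule, stricter by construction, left 3 risen (8.88%) and 1 fallen (5.98%) in SKM against empty vector, 0 risen in OSKM against SKM (2.55%), 0 risen (4.43%) and 0 fallen (1.10%) in G3SKM against SKM, 4 risen (4.79%) and 0 fallen (4.14%) in OSKM against empty vector, 0 risen (7.06%) and 0 fallen (3.74%) in G3SKM against empty vector and 0 risen in OSKM against G3SKM (0.724%). Centring gave 4 risen genes in SKM against empty vector (17.2%), 6 in OSKM against empty vector (9.68%) and 1 in OSKM against G3SKM (3.10%), and medians against empty vector of -0.1134 for SKM, 0.0651 for OSKM and -0.1029 for G3SKM; the first and last changed sign. Removal of the GC trend left 1 fallen gene in SKM against empty vector (11.2%), 0 risen in OSKM against SKM (4.49%), and 0 risen (6.31%) and 0 fallen (3.44%) in G3SKM against SKM, whose median turned to -0.0623. Exon length gave 7 risen in G3SKM against SKM (15.2%), and 17 in OSKM (24.3%) and 12 in G3SKM (26.1%) against empty vector. Exon length with the GC trend removed gave 2 fallen in SKM against empty vector (13.9%), 0 risen in OSKM against SKM (7.27%), 1 risen (7.55%) and 0 fallen (2.81%) in G3SKM against SKM with a median of -0.0010, 17 risen in OSKM (23.9%) and 12 in G3SKM (26.1%) against empty vector, and 5 risen in OSKM against G3SKM (5.40%).

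No paired analysis was possible because each group has 1 column that combines its replicates, and for the same reason leaving out a replicate was not run. Depth was not the limit for most of the 50 genes: E2f2 had 221 reads in empty vector, and every other gene had at least 666 in each group. The spread between replicates, which counting intervals leave out, is unknown.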
